A study of Mus musculus with 16 samples.

Results

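The genes described here are 8 transcripts of the B lymphocyte lineage, chosen by name as B cell surface and immunoglobulin constant genes: Ighm, Ighd, Igkc, Iglc2, Cd79a, Cd79b, Ms4a1 and Jchain. Their identifiers in the table are ENSMUSG00000076617.9 (Ighm), ENSMUSG00000104213.5 (Ighd), ENSMUSG00000076609.2 (Igkc), ENSMUSG00000076937.3 (Iglc2), ENSMUSG00000003379.7 (Cd79a), ENSMUSG00000040592.11 (Cd79b), ENSMUSG00000024673.9 (Ms4a1) and ENSMUSG00000067149.6 (Jchain). All 8 were among the 54752 genes counted in the liver libraries, and 7 of the 8 passed the filter on low counts that left 17833 genes for testing. Iglc2, with 0 to 12 counts per library, did not pass it.

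The study asked how the macronutrient make-up of the diet acts on mice that age prematurely, and the livers came from male Ercc1 d/- mice of the strain F1 Hybrid C57BL6J/FVBN, killed at 11 weeks of age. Ercc1 d/- mice carry a truncated and a null allele of Ercc1, a gene of nucleotide excision repair, and the controls carried the same genotype, so nothing here compares mutant with wild-type animals. All mice were kept on AIN93G, a purified standard rodent diet, until they were randomised across diets at 8 weeks. The high-protein diet held 194% of the standard protein and 70% of the standard carbohydrate, the low-protein diet held 70% of the protein and 112% of the carbohydrate, the low-fat diet held 70% of the fat and 112% of the carbohydrate, and the control group stayed on AIN93G. All diets were eaten freely, and each diet had 4 mice with 1 liver library each.

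Library totals ran between 35243594 and 112789127 gene counts, with low-fat replicate 2 the deepest. The summed level of 10 hepatocyte transcripts lay between 75370 and 146200 CPM, the count scaled to library size, as fits the label liver. The summed level of 19 kidney transcripts differed widely between libraries, with 7.50 CPM in high-protein replicate 1 as the lowest and 4960 CPM in control replicate 3 as the highest. Control replicate 4 needed the smallest scaling factor, 0.778, against 0.920 to 1.16 in the other 15 libraries. Ercc1 itself had 46 to 175 counts (1.27 to 2.01 CPM) in the 16 libraries, and without a wild-type group its label could not be checked against a reference. Results that rest on the libraries named above are given below with and without them where they differ.

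As background, a mature B cell that has not met antigen carries membrane IgM and IgD, made from Ighm and Ighd by alternative splicing of the same transcript, together with the signalling pair CD79A and CD79B and the membrane protein CD20, the product of Ms4a1. A plasma cell, the antibody-secreting end stage, loses most of these surface molecules and makes large amounts of light chain, such as the kappa chain encoded by Igkc, and of the joining chain encoded by Jchain, which links secreted IgM and IgA into polymers. Ighm, Igkc and the lambda constant gene Iglc2 are used at both stages. Adult liver is not a site of B cell formation; its B cells and plasma cells arrive with the blood or reside in the sinusoids and portal tracts, and the liver exports IgA into bile. In whole liver tissue, fewer B cells and less RNA per B cell cannot be told apart.

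The promoters of Cd79a and Jchain, a surface gene and a secretion gene, are shown because these genes stand for the pair of stages. They run for 250 bases before and 50 bases after the transcription start in RefSeq, build GRCm38.p6, 5′ to 3′ along the gene. Capitals mark matches, on either strand, to an E-box (CAGGTG), an Ets motif (GGAAGT) and a PU box (GAGGAA).
Cd79a: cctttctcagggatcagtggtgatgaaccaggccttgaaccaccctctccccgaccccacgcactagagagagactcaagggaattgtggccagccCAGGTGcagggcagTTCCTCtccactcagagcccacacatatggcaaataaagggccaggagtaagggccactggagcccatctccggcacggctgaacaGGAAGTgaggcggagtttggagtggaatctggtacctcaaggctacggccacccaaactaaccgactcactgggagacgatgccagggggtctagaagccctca
Jchain: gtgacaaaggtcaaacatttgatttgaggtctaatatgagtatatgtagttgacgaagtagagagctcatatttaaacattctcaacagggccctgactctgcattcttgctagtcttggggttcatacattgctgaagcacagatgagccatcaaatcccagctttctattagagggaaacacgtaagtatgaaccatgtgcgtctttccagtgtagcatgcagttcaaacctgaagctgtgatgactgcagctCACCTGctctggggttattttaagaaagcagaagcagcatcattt

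The Cd79a window lies at chr7:24897247-24897546 on the plus strand and holds all 3 motifs, with first bases at -154 (E-box), -140 (PU box, as TTCCTC) and -54 (Ets) from the start. The Jchain window lies at chr5:88527848-88528147 on the minus strand and holds the E-box alone, as CACCTG at position 6 after the start. These are common matches: of 32851 promoter windows of the same length, 20.2% hold the E-box, 23.8% the Ets motif and 28.3% the PU box. The octamer ATGCAAAT, a motif of immunoglobulin promoters held by 1.74% of all windows, and the palindrome bound by the B cell factor EBF1, held by 0.904%, are not in the letters of either window.

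The gene models of Cd79a (chr7:24897381-24902197) and Jchain (chr5:88519809-88527891) start inside these windows, and the other members lie on 5 more chromosomes. In the annotation of the same build, Ighm (chr12:113418558-113422730) and Ighd (chr12:113406604-113416324) are neighbours on the minus strand of the heavy-chain locus. Igkc lies at chr6:70726435-70726966 on the plus strand. Cd79b (chr11:106311341-106314762), Ms4a1 (chr19:11249675-11266241) and Iglc2 (chr16:19198396-19200351) lie on the minus strand. Because Ighm and Ighd share a primary transcript, unspliced reads could reach both, and their values are not wholly independent.

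Iglc2 has a near copy, Iglc3, so reads could be split between them or dropped. The first 110 bases of the coding parts of both constant genes in the GENCODE M21 transcripts are shown with differing bases in capitals, to show how near the copies are.
Iglc2: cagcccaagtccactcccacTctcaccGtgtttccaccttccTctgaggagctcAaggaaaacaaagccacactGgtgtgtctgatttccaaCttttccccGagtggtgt
Iglc3: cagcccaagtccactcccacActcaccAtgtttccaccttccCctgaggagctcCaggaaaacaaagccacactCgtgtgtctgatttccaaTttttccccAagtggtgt

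Over the whole coding part of 315 bases, 11 bases differ (96.5% identity), 7 of them in the stretch above, and the longest identical run is 79 bases. The counts of Iglc2 are therefore uncertain and are given as counts.

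The 8 transcripts were scarce. Per kilobase of gene model, which allows genes to be set side by side, the mean level over all 16 livers was 3.36 ± 4.70 CPM per kb for Igkc and 2.585 ± 1.48 CPM per kb for Ighm (SD, n = 16). Cd79b (0.450 ± 0.195), Ighd (0.421 ± 0.261), Cd79a (0.401 ± 0.207) and Jchain (0.393 ± 0.427 CPM per kb) followed and lay within each other's spread. Iglc2 (0.186 ± 0.192) and Ms4a1 (0.0651 ± 0.0507 CPM per kb) were lowest. Igkc and Ighm did not differ beyond their spread either. A library's floor, 3 counts, was worth 0.0251 to 0.0920 CPM, and single values of Ms4a1, Cd79a, Ighd and Iglc2 lay at or under it.

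No member passed an adjusted p of 0.05 in any comparison of diets by edgeR's quasi-likelihood test with Benjamini-Hochberg adjustment over all 17833 genes, and neither did any other gene (0% called). The pattern in the measured levels was nevertheless ordered: on the high-protein diet the B cell transcripts lay below those on the low-fat and low-protein diets, and both of these lay above control. The widest gap was high protein against low fat, where all 7 tested members were lower and all 7 had an unadjusted p under 0.05. Of all tested genes, 53% were lower in that comparison and 4.41% were lower with an unadjusted p under 0.05. The members share cells, so these 7 counts are not independent of each other.

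**Figure D1:**
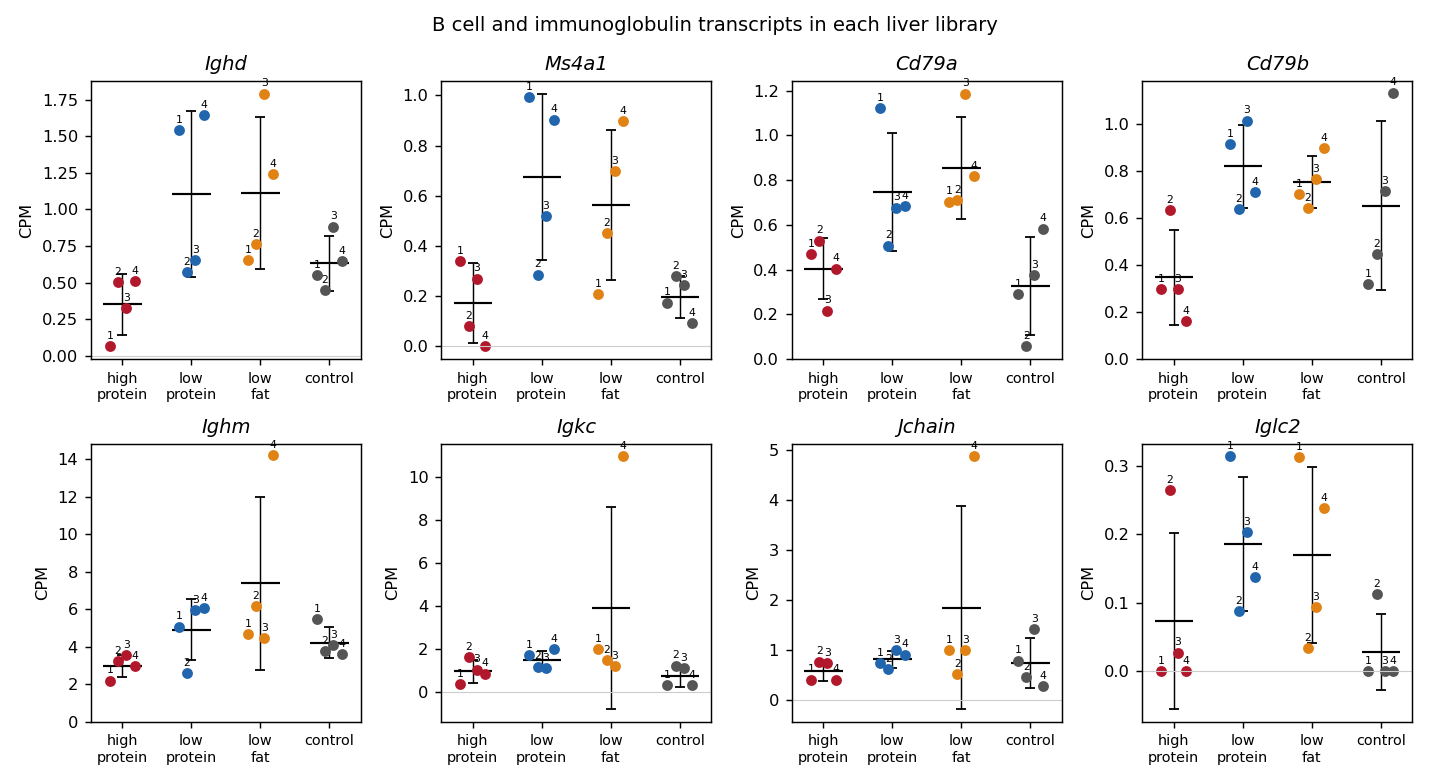
Level of each of the 8 genes in CPM (vertical axes, one scale per gene, starting at or below 0) in the 4 libraries of each diet (points, numbered by replicate), with the mean (horizontal line) and SD (bar). High-protein livers sit low in most panels, and low-fat replicate 4 stands far above the others for Igkc (10.95 CPM) and Jchain (4.87 CPM).

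Ighd, the IgD heavy chain of unswitched mature B cells, had 0.0637, 0.503, 0.325 and 0.512 CPM in high-protein livers, against 1.54, 0.573, 0.655 and 1.64 CPM in low-protein livers. It had 0.652, 0.761, 1.79 and 1.24 CPM in low-fat livers, against 0.551, 0.448, 0.883 and 0.644 CPM in control livers. Every high-protein liver was below every low-protein and every low-fat liver, and the high-protein and control ranges overlapped. High-protein replicate 1, the lowest, rested on 3 counts. The fitted log2 fold change was -1.67 ± 0.54 (SE) for high protein against low fat (unadjusted p = 0.00734, adjusted p = 0.443, edgeR). It was -1.66 ± 0.54 against low protein (unadjusted p = 0.00778, adjusted p = 0.921, edgeR). Against control it was -0.87 ± 0.54 in high-protein, 0.79 ± 0.52 in low-protein and 0.80 ± 0.52 in low-fat livers.

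Ms4a1, which encodes CD20, had 0.340, 0.0794, 0.270 and 0 CPM in high-protein livers, against 0.994, 0.286, 0.519 and 0.904 CPM in low-protein livers. It had 0.209, 0.452, 0.698 and 0.899 CPM in low-fat livers, against 0.174, 0.280, 0.244 and 0.0920 CPM in control livers. All 4 low-protein livers exceeded all 4 control livers, which 1.61% of tested genes did in that comparison. In high-protein replicate 4 no count was found, which allows up to 0.0809 CPM. The fitted log2 fold change was 1.74 ± 0.70 for low protein against control (unadjusted p = 0.0258, adjusted p = 0.682, edgeR) and -1.92 ± 0.71 for high protein against low protein (unadjusted p = 0.0159, adjusted p = 0.944, edgeR). Against control it was -0.18 ± 0.74 in high-protein and 1.48 ± 0.70 in low-fat livers.

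Cd79a, the Ig-alpha signalling subunit of the B cell receptor, had 0.467, 0.529, 0.216 and 0.405 CPM in high-protein livers, against 1.12, 0.507, 0.678 and 0.685 CPM in low-protein livers. It had 0.704, 0.711, 1.19 and 0.820 CPM in low-fat livers, against 0.290, 0.0560, 0.376 and 0.583 CPM in control livers. The 4 low-fat livers lay above all control and all high-protein livers. Such separation upward from control was seen in 1.27% of tested genes, and separation of high protein downward from low fat in 3.99%. The log2 fold change was 1.38 ± 0.48 for low fat against control (unadjusted p = 0.0115, adjusted p = 0.530, edgeR) and 1.19 ± 0.48 for low protein against control (unadjusted p = 0.0262, adjusted p = 0.682, edgeR). High-protein livers lay close to control, at 0.31 ± 0.49.

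Cd79b, the Ig-beta subunit, had 0.297, 0.635, 0.298 and 0.162 CPM in high-protein livers, against 0.915, 0.639, 1.02 and 0.712 CPM in low-protein livers. It had 0.704, 0.644, 0.768 and 0.899 CPM in low-fat livers, against 0.319, 0.448, 0.714 and 1.14 CPM in control livers. High-protein livers were below all low-protein and all low-fat livers, though replicate 2 (0.635 CPM) only just. Unlike Cd79a, Cd79b was spread over the whole range in control livers, and its log2 fold changes against control were -0.91 ± 0.43 in high-protein, 0.33 ± 0.41 in low-protein and 0.20 ± 0.41 in low-fat livers (adjusted p = 0.762, 0.832 and 0.883, edgeR). High protein differed from low protein by a log2 fold change of -1.23 ± 0.43 (unadjusted p = 0.0108, adjusted p = 0.921, edgeR).

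Summed over these 4 surface genes, the level was 1.28 ± 0.316 CPM in high-protein, 3.35 ± 1.14 CPM in low-protein, 3.29 ± 1.04 CPM in low-fat and 1.81 ± 0.617 CPM in control livers (SD, n = 4 each). The highest high-protein liver (1.75 CPM) was below the lowest low-protein (2.00 CPM) and low-fat liver (2.27 CPM).

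Ighm, the IgM heavy chain, was the most counted member, at 103 to 738 counts per library. It had 2.19, 3.23, 3.54 and 2.97 CPM in high-protein livers, against 5.07, 2.58, 5.94 and 6.08 CPM in low-protein livers. It had 4.67, 6.17, 4.44 and 14.2 CPM in low-fat livers, against 5.46, 3.75, 4.08 and 3.62 CPM in control livers. All high-protein livers lay below all low-fat livers and also below all control livers, and 0.841% of tested genes were separated from control in that way. The separation from control was narrow (3.54 against 3.62 CPM) and rests on the scaling factor of control replicate 4. Scaled to library totals alone, that liver had 2.82 CPM, below high-protein replicates 2 and 3 (3.27 and 3.485 CPM), so the groups overlapped. For high protein against low fat, the log2 fold change of -1.31 ± 0.36 had the smallest p of the 7 members (unadjusted p = 0.00233, adjusted p = 0.384, edgeR), and it was -0.75 without low-fat replicate 4. Against control, the log2 fold change was -0.50 ± 0.36 in high-protein livers (adjusted p = 0.763, edgeR) and 0.80 ± 0.35 in low-fat livers (unadjusted p = 0.0385, adjusted p = 0.534, edgeR), and the low-fat value was 0.25 without replicate 4; low-protein livers were at 0.22 ± 0.35.

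Igkc, the kappa light-chain constant gene, had 0.361, 1.64, 1.06 and 0.863 CPM in high-protein livers, against 1.73, 1.19, 1.11 and 2.00 CPM in low-protein livers. It had 2.01, 1.505, 1.21 and 10.95 CPM in low-fat livers, against 0.319, 1.23, 1.13 and 0.338 CPM in control livers. Low-fat replicate 4 held more Igkc than the 3 other low-fat livers together, while those 3 lay within or just above the range of the low-protein livers. The log2 fold change for low fat against control was 2.35 ± 0.70 (unadjusted p = 0.00425, adjusted p = 0.530, edgeR) and 1.02 without that liver (adjusted p = 0.571). For high protein against low fat it was -1.996 ± 0.69 (unadjusted p = 0.0110, adjusted p = 0.470, edgeR) and -0.67 without it. High-protein and low-protein livers differed from control by 0.36 ± 0.69 and 0.98 ± 0.69.

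Jchain, the joining chain of polymeric antibody, had 0.404, 0.767, 0.730 and 0.405 CPM in high-protein livers, against 0.732, 0.617, 0.994 and 0.904 CPM in low-protein livers. It had 0.990, 0.518, 1.00 and 4.87 CPM in low-fat livers, against 0.784, 0.448, 1.41 and 0.276 CPM in control livers. Apart from low-fat replicate 4, the 4 diets overlapped. The log2 fold change for high protein against low fat was -1.66 ± 0.63 (unadjusted p = 0.0179, adjusted p = 0.502, edgeR) and -0.51 without that liver (adjusted p = 0.757). For low fat against control it was 1.30 ± 0.62 (unadjusted p = 0.0517, adjusted p = 0.541, edgeR) and 0.15 without it. High-protein and low-protein livers differed from control by -0.36 ± 0.63 and 0.13 ± 0.62.

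Iglc2, the lambda 2 constant gene, had 0, 10, 1 and 0 counts in high-protein livers, 12, 4, 9 and 5 counts in low-protein livers, 12, 4, 4 and 9 counts in low-fat livers and 0, 4, 0 and 0 counts in control livers. It was counted in all 8 low-protein and low-fat libraries, in 2 of 4 high-protein libraries and in 1 of 4 control libraries. The summed counts were 11 in high-protein, 30 in low-protein, 29 in low-fat and 4 in control livers. It was under the filter on low counts. With no such filter its log2 fold change against control was 1.32 ± 1.33 in high-protein, 2.65 ± 1.27 in low-protein and 2.47 ± 1.28 in low-fat livers (unadjusted p = 0.333, 0.0503 and 0.0668, adjusted p = 0.786, 0.734 and 0.664, edgeR), with control at 4 counts in all. A count of 0 allows 0.0564 to 0.0920 CPM in those libraries.

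**Figure D2:**
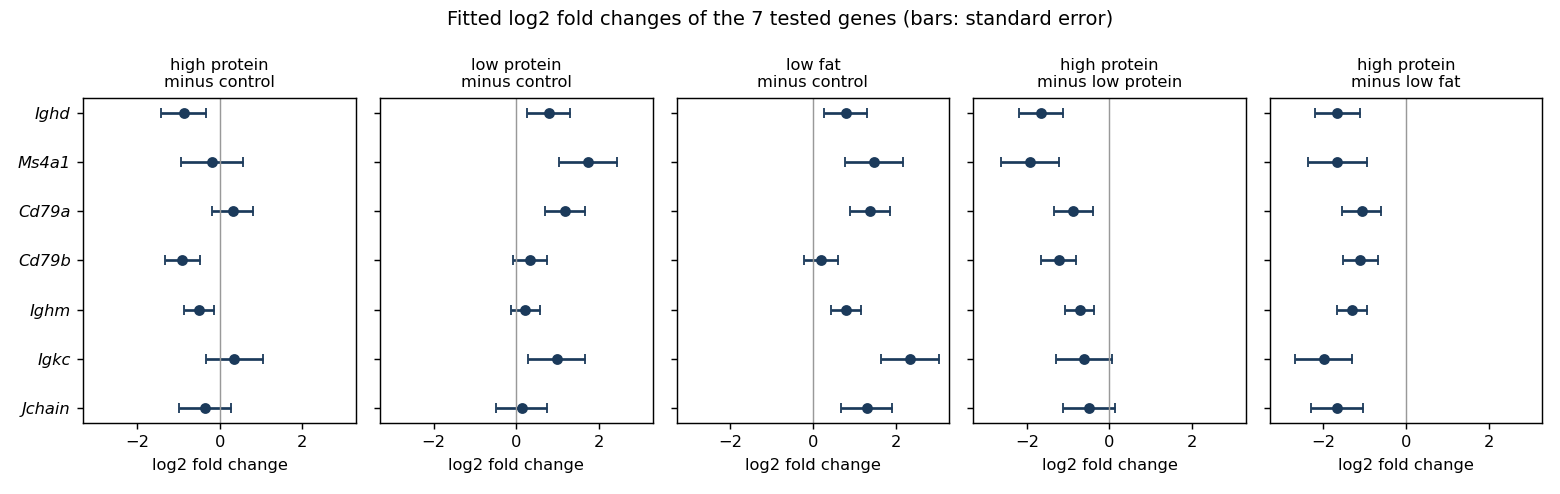
Fitted log2 fold change (horizontal axes, points; bars are 1 standard error) of the 7 tested genes in 5 comparisons, each the named diet minus its partner. All 7 points lie left of 0 in both panels that set high protein against another changed diet, and right of 0 for low protein and low fat against control.

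By comparison, low fat against control had all 7 members higher (47.6% of tested genes were higher) and 3 of 7, namely Igkc, Cd79a and Ighm, with an unadjusted p under 0.05 (3.1% of tested genes, higher). Low protein against control also had all 7 higher (45.6% of tested genes) and 2 of 7, Cd79a and Ms4a1, under 0.05 (2.35%). High protein against control had 5 lower and 2 higher (58.3% and 41.7% of tested genes), none under 0.05 (6.22% of tested genes in either direction). High protein against low protein had all 7 lower (52.5%) and 3 of 7, Ighd, Cd79b and Ms4a1, under 0.05 (2.83%), 2 of them without overlap of libraries (3.47%). High protein against low fat had 4 of 7 without overlap (3.99%). These comparisons share libraries, so their directions are not independent. Leaving out single libraries gave 1 to 5 members under 0.05 for low fat against control (1 without low-fat replicate 4) and 0 to 3 for low protein against control (0 without control replicate 1 or without low-protein replicate 1).

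Between the low-fat and low-protein diets no difference passed: 5 members were higher and 2 lower on the low-fat diet (50.4% and 49.6% of tested genes), and none had an unadjusted p under 0.05 (2.38% in either direction). The log2 fold changes were between -0.26 ± 0.65 (Ms4a1) and 1.37 ± 0.67 (Igkc), all with an adjusted p of 1.0 by edgeR, and such standard errors leave room for differences of more than 1 on the log2 scale. In a test across all 4 diets at once, 5 of 7 members (Igkc, Ighm, Ighd, Ms4a1 and Cd79a) had an unadjusted p under 0.05, against 6.59% of tested genes, and the smallest adjusted p was 0.695 (edgeR).

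The levels of transcripts of other cells also shifted between the diets, in part in another order. Of 19 kidney transcripts, all 19 were lower in high-protein than in low-fat livers, with a median log2 fold change of -1.60 against -0.02 for all genes tested. None of the 19 had an unadjusted p under 0.05 (edgeR). Their summed level was 7.50 to 1674 CPM in high-protein livers and 1128 to 3197 CPM in low-fat livers. Across the 16 livers the kidney level correlated with Ighd (Pearson r = 0.79, permutation p = 0.00094, adjusted p = 0.0226; Spearman rho = 0.66, permutation p = 0.00636, adjusted p = 0.121) and within diets at r = 0.775. Without high-protein replicate 1 and control replicate 2, the livers farthest from the median kidney level, r was 0.49 (permutation p = 0.0774). Leaving out such livers also narrows the range of the kidney level, so how far the relation rests on them was not tested. No other of 24 relations between a member and the kidney, erythroid or T cell level had an adjusted p under 0.05.

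With the kidney level as a covariate, all 7 members were still lower in high-protein than in low-fat livers, and 2 of 7 (Ighm and Ms4a1) had an unadjusted p under 0.05. Ighd then had a log2 fold change of -1.0 (unadjusted p = 0.0519, adjusted p = 0.757, edgeR), and Ms4a1 one of -2.16 (unadjusted p = 0.0278, adjusted p = 0.707, edgeR). Leaving out low-fat replicate 4 or high-protein replicate 4 left 3 members each under 0.05, of 8 then tested because Iglc2 passed the filter. T cell transcripts had the same direction, with 10 of 11 lower in high-protein than in low-fat livers (median log2 fold change -0.50) and a summed level of 4.80 to 7.38 CPM in high-protein against 6.88 to 12.3 CPM in low-fat livers. Of 4 NK cell transcripts 4, and of 11 Kupffer cell transcripts 10, were also lower (median log2 fold changes -0.64 and -0.16), while 4 of 6 erythroid transcripts were higher (0.82). None of these T cell, NK cell or Kupffer cell transcripts had an unadjusted p under 0.05 (edgeR). Among the erythroid transcripts 2 did, 1 higher and 1 lower.

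Against control, the other cells did not all go with the members. In low-fat livers, where all 7 members were higher, so were 19 of 19 kidney transcripts (median log2 fold change 0.72), 10 of 11 T cell transcripts (0.74), 4 of 4 NK cell transcripts (1.23) and 10 of 11 Kupffer cell transcripts (0.40). With the kidney level as a covariate, low fat against control kept 3 members with an unadjusted p under 0.05, then Igkc, Cd79a and Ms4a1. In that fit Ighm had a log2 fold change of 0.68 (unadjusted p = 0.111, adjusted p = 0.778, edgeR) and Ighd one of 0.09. In low-protein livers 18 of 19 kidney transcripts were lower than in control (-0.51) and 8 of 11 T cell transcripts higher (0.70). In high-protein livers 18 of 19 kidney transcripts were lower than in control (-0.94). There 7 of 11 T cell (0.17), 11 of 11 Kupffer cell (0.23) and 5 of 6 erythroid transcripts (1.03) were higher. The summed kidney level was 184, 98.8, 4960 and 345 CPM in control livers. Low-protein livers had 722 to 1359 CPM, so only control replicate 3 lay above them. High-protein livers had 7.50, 1674, 446 and 986 CPM, and all but replicate 1 lay above control replicates 1, 2 and 4. By summed level, lower kidney values on both diets thus rest on control replicate 3. The part of other cells in the B cell values was not tested beyond these values.

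Igkc and Jchain, which plasma cells make in large amounts, did not keep a fixed ratio to the B cell surface genes. Naive B cells also use Igkc, so the sum of Igkc and Jchain is not specific to secretion. The log2 ratio of Igkc and Jchain counts to the counts of the 4 surface genes was 0.19 ± 0.57 in high-protein, -0.48 ± 0.31 in low-protein, 0.27 ± 1.31 in low-fat and -0.41 ± 1.10 in control livers (SD, n = 4 each). The diets overlapped, and 2 single livers marked the ends of the range. Low-fat replicate 4 had 598 counts of Igkc and Jchain, 414 of them of Igkc, to 146 surface counts (log2 ratio 2.03). Control replicate 4 had 20 to 80 (log2 ratio -2.0). The surface level of low-fat replicate 4, 3.86 CPM, lay within the 2.27 to 4.44 CPM of its diet. Of the members, only Igkc, Jchain and Ighm stood out in that liver, and the surface genes did not.

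**Figure D3:**
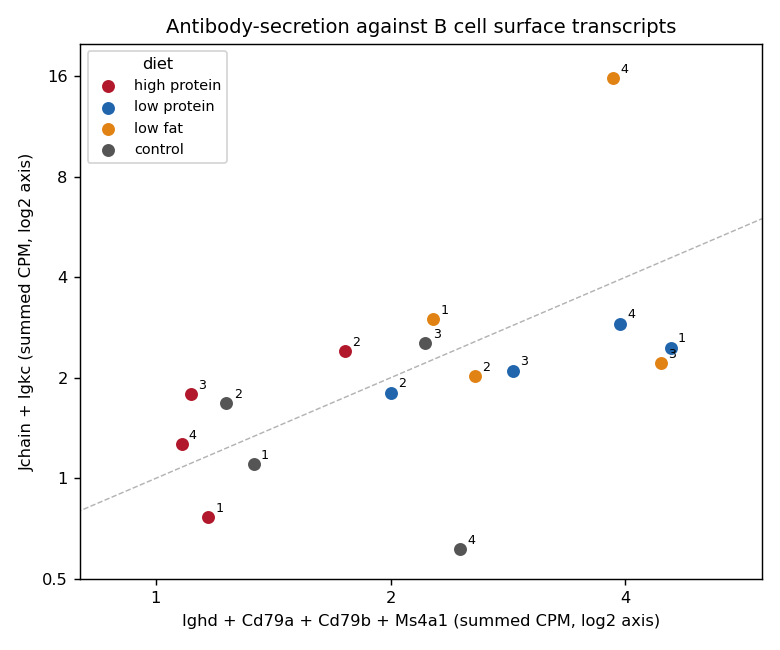
Summed CPM of Igkc and Jchain (vertical, log2 axis) against summed CPM of Ighd, Cd79a, Cd79b and Ms4a1 (horizontal, log2 axis) in the 16 livers, coloured by diet and numbered by replicate; the dashed line marks equal sums. High-protein livers lie at the left (1.08 to 1.75 CPM), low-protein livers below the line, and low-fat replicate 4 far above all others (15.8 CPM).

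The heavy-chain constant counts give the classes transcribed by B cells and plasma cells together, not by secreting cells alone. Ighm and Ighd together held most of the heavy-chain constant counts in every liver, and Igha, the constant gene of mucosal IgA, was the main switched class in most. Switched classes (Igha, Ighe and the Ighg genes) held 20.2 ± 7.64% of heavy-chain counts in high-protein, 23.0 ± 10.5% in low-protein, 25.8 ± 9.74% in low-fat and 17.6 ± 5.94% in control livers (SD, n = 4 each). The diets overlapped. Igha itself averaged 0.543 ± 0.406 CPM in high-protein and 1.69 ± 0.822 CPM in low-fat livers (log2 fold change -1.635 ± 0.55, unadjusted p = 0.00964, adjusted p = 0.467, edgeR). Without low-fat replicate 4 the log2 fold change was -1.24 (unadjusted p = 0.0449, adjusted p = 0.502, edgeR). Each high-protein liver was below each low-fat liver, though only just (1.085 against 1.087 CPM), and 3.99% of tested genes were separated in that way.

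Low-fat replicate 4 again stood apart, here by its IgG classes. Its switched share was 39.8%, the highest of the 16, with low-protein replicate 2 next at 36.7%. Of its 387 switched counts, 172 were of Ighg2b, 60 of Ighg2c, 41 of Ighg1 and 109 of Igha. In low-protein replicate 2, Igha held 54 of 83. In the other 15 libraries Ighg2b had 0 to 23 counts. Further plasma cell genes were not all high in that liver: Mzb1, a chaperone of antibody assembly, had 0.635 CPM, with 0.140 to 1.24 CPM in the other 15. Derl3, a gene of endoplasmic reticulum quality control, had 2.72 CPM there and was highest in low-fat replicate 2, at 40.4 CPM. The kappa share of light-chain constant counts was 94.3% in low-fat replicate 4 and 64.7% in control replicate 4, the lowest, where it rests on 11 kappa and 6 lambda counts.

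**Figure D4:**
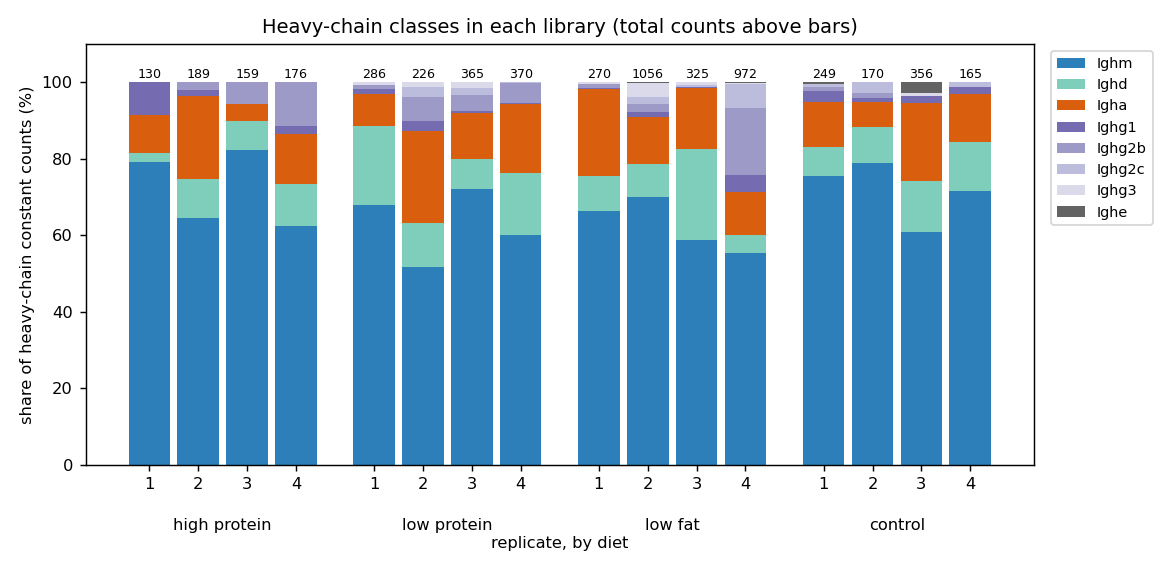
Share of heavy-chain constant-region counts (vertical axis, %) held by each class in the 16 libraries (horizontal axis, replicate within diet), with total counts above the bars. Ighm takes 51.8 to 82.4% everywhere, and the purple IgG classes are widest in low-fat replicate 4, where Ighg2b alone takes 17.7%.

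Variable genes give a coarse view of how mixed the B cell clones behind the constant-region counts are, because clones differ in the variable gene they have joined to the constant gene. Counts over 100 kappa variable genes summed to 21 to 29 in high-protein, 27 to 43 in low-protein, 37 to 251 in low-fat and 6 to 25 in control livers. The number of different kappa variable genes counted was 8 to 12 in high-protein, 13 to 18 in low-protein, 13 to 37 in low-fat and 4 to 7 in control livers. The control livers thus did not overlap with any changed diet in this number, which grows with the counts. The 251 counts of low-fat replicate 4 fell on 37 genes, led by Igkv3-4 with 57 counts (22.7%, Wilson 95% interval 18.0 to 28.3%, covering counting error only).

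The share held by the leading kappa variable gene averaged 23.3 ± 7.38% in high-protein, 15.9 ± 2.39% in low-protein, 29.0 ± 6.97% in low-fat and 31.1 ± 6.84% in control livers (SD, n = 4 each). All 4 low-protein shares, 13.95 to 19.4%, lay below all low-fat and all control shares. Heavy-chain variable genes went the other way, with mean leading shares of 37.5% in high-protein, 41.9% in low-protein, 36.6% in low-fat and 36.4% in control livers, on fewer counts. For the kappa shares, an exact two-sided permutation test gave p = 0.0286 both for low protein against control and for the comparison of low fat with low protein. This is the smallest p that 70 assignments allow, and the adjusted p over 6 pairs was 0.0857 for both. Thinned to 6 counts per library, low-protein livers held 5.22 ± 0.0659 different genes, against 4.26 ± 0.609 in control livers (exact permutation p = 0.0286, adjusted p = 0.0571). Under the same thinning, high-protein livers held 4.70 ± 0.346 and low-fat livers 4.66 ± 0.308 (exact permutation p = 0.0286 and adjusted p = 0.0571 against low protein for both). No pair passed an adjusted p of 0.05 by either measure. By Shannon entropy, which grows with the counts, 4 of 6 pairs passed: it was 3.06 bits in high-protein, 3.77 in low-protein and 3.54 in low-fat livers against 2.30 bits in control livers, and the high-protein and low-protein livers did not overlap either (p = 0.0286 by exact permutation and 0.0429 after adjustment, for each of the 4).

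The leading gene was mostly another one in each liver, as for Igkv17-127 in high-protein replicate 1, Igkv19-93 in low-protein replicate 1, Igkv8-19 in low-fat replicate 1 and Igkv8-24 in control replicate 2. Igkv6-14 led in 2 low-protein livers, and Igkv3-4 led in low-fat replicates 2 and 4 and, in a tie with Igkv3-2 at 4 counts, in high-protein replicate 4. Among 113 heavy-chain variable genes, with 4 to 69 counts per library, Ighv1-56 led in low-protein replicates 1, 3 and 4, low-fat replicates 1, 2 and 3 and control replicate 3, and Ighv1-20 led in low-fat replicate 4. Germline variable genes resemble each other, so short reads could be assigned to a near copy.

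The wider B cell list went partly the same way. Of 18 tested B cell genes outside the 8, 14 were lower in high-protein than in low-fat livers (median log2 fold change -0.45) and 14 were lower than in low-protein livers (median -0.61). Against control, 15 of 18 were higher in low-protein livers (median 0.46, against -0.03 for all genes tested) and 14 of 18 in low-fat livers (median 0.41, against -0.02). High protein against control was mixed, with 6 of 18 lower and 12 higher (median 0.20). Against control, 3 of 18 were higher with an unadjusted p under 0.05 in low-protein livers (2.35% of all tested genes) and 5 in low-fat livers (3.1%). In high-protein livers 3 were lower and 1 higher with such a p (3.74% and 2.48% of all tested genes). None passed the adjusted threshold.

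The surface gene Fcrl1 (log2 fold change -1.69 ± 0.62) and Pax5, the transcription factor that holds B cell identity (-1.42 ± 0.58), had unadjusted p = 0.0158 and 0.0263 in high protein against control (adjusted p = 0.762 for both, edgeR). Pax5 had 0.297, 0.185, 0.189 and 0.108 CPM in high-protein livers, against 0.203, 0.280, 1.11 and 0.491 CPM in control livers, so the groups overlapped. Without control replicate 3 its log2 fold change was -0.67 (unadjusted p = 0.239).

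Against control, the scaffold gene Bank1 (log2 fold change 0.90 ± 0.31), the IgM Fc receptor gene Fcmr (1.84 ± 0.75) and the kinase gene Blk (1.00 ± 0.45) led the list in low-protein livers, all at adjusted p = 0.682 (edgeR). In low-fat livers Blk (1.07 ± 0.45), Bank1 (0.71 ± 0.30) and Ly6d (1.40 ± 0.60) led, all at adjusted p = 0.530 (edgeR), and Ly6d was at 0.73 without low-fat replicate 2. Blk and Bank1 were thus near the top on both diets, which share the control livers. Without control replicate 4, low-protein livers had Bank1 at 0.69, Fcmr at 1.45 and Blk at 0.71 (unadjusted p = 0.0301, 0.0603 and 0.1165, edgeR). Low-fat livers then had Blk at 0.77 and Bank1 at 0.49 (unadjusted p = 0.0896 and 0.107, edgeR).

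The genes of B cell receptor signalling, many of which other blood cells also use, showed smaller values. Of 15 genes, 12 were higher in low-protein and 13 in low-fat livers than in control (median log2 fold changes 0.28 and 0.30). Of all tested genes, 45.6% and 47.6% were higher in these comparisons. In low-fat livers Pik3cd, the catalytic subunit of a leukocyte PI3 kinase, had the smallest p, at 4.76 ± 1.04 CPM against 2.52 ± 0.848 CPM in control (log2 fold change 0.92 ± 0.27, unadjusted p = 0.00386, adjusted p = 0.530, edgeR). The phosphatase gene Ptpn6 and the kinase gene Syk followed at 0.30 ± 0.11 and 0.50 ± 0.19. In low-protein livers the leading genes were Ptpn6 (0.28 ± 0.11), Cd81 (0.30 ± 0.11) and the kinase gene Btk (0.87 ± 0.34). Without control replicate 4, Pik3cd was at 0.72 in low-fat and Cd81 at 0.23 in low-protein livers (unadjusted p = 0.0127 and 0.0564, edgeR). High protein against control had 12 of 15 higher (median 0.13, with 41.7% of all tested genes higher). Vav1 (0.45 ± 0.23), Syk (0.35 ± 0.19) and Ptpn6 (0.17 ± 0.11) were first by p, and none was under an unadjusted 0.05.

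In the plasma cell list, Tnfrsf13b, which encodes the receptor TACI, had the smallest p against control on 2 of the 3 diets. It had 0.389 ± 0.231 CPM in high-protein, 0.383 ± 0.130 CPM in low-protein, 0.225 ± 0.0763 CPM in low-fat and 0.0877 ± 0.0595 CPM in control livers (SD, n = 4 each). The log2 fold changes against control were 2.09 ± 0.58, 2.07 ± 0.58 and 1.29 ± 0.58 in that order of diets, at adjusted p = 0.762, 0.682 and 0.534 (edgeR), and the control values rest on 1 to 6 counts. The mean of Tnfrsf13b was thus not low on the high-protein diet. Without control replicate 4 its log2 fold change was 1.80 in low-protein and 1.00 in low-fat livers (unadjusted p = 0.00945 and 0.121, edgeR). Mzb1 (1.10 ± 0.55) and Irf4, a transcription factor of plasma cell formation (-1.25 ± 0.64), differed in sign between high protein and control, and Mzb1 was at 0.45 without high-protein replicate 4.

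Other named plasma cell genes were Pou2af1, a B cell coactivator (0.90 ± 0.40), and Ell2, an elongation factor that hepatocytes also express (-0.86 ± 0.37), in low protein against control, and Derl3 (2.35 ± 0.95) and Ell2 (-0.77 ± 0.37) in low fat against control. Ell2 rested on control replicate 4, at 311.8 CPM: without it the log2 fold change was -0.10 in low-protein and -0.02 in low-fat livers. Derl3 rested on low-fat replicate 2, at 40.4 CPM: without it the log2 fold change was 1.008 (unadjusted p = 0.263). Of the 14 tested, 8 were higher in high-protein, 9 in low-protein and 11 in low-fat livers than in control. Of all tested genes, 41.7%, 45.6% and 47.6% were higher in that order. Of 9 other constant genes, only Igha and Ighg2b passed the filter. Their log2 fold changes against control were -0.56 ± 0.55 and 2.62 ± 1.74 in high-protein, 0.54 ± 0.54 and 3.12 ± 1.70 in low-protein and 1.07 ± 0.54 and 5.05 ± 1.66 in low-fat livers, where the 172 Ighg2b counts of replicate 4 stand beside 0 to 23 in the other 3 livers and the log2 fold change was 1.49 without it.

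Genes that attract B cells or carry antibody were taken as a further list of 7. Cxcl13, the chemokine of B cell follicles, had 2, 2, 4 and 3 counts in high-protein livers, against 19, 9, 17 and 7 counts in control livers, without overlap (log2 fold change -2.21 ± 0.95, unadjusted p = 0.0346, adjusted p = 0.762, edgeR). In low-protein livers it had -0.91 ± 0.86 against control, and in low-fat livers it ranged over 0 to 41 counts, with the highest value in replicate 4. Pigr, the receptor that carries IgA into bile, was abundant at 2122 ± 314 CPM in high-protein and 1764 ± 290 CPM in control livers (0.27 ± 0.14, adjusted p = 0.763, edgeR). Cxcl12, a chemokine that retains plasma cells, was within a log2 fold change of 0.15 of control on each diet, and Tnfsf13b, the survival factor BAFF, had 0.45 ± 0.42 in high-protein, -0.23 ± 0.42 in low-protein and -0.49 ± 0.42 in low-fat livers against control. The mean of Tnfsf13b was highest on the high-protein diet, at 0.615 ± 0.306 CPM against 0.319 ± 0.120 CPM in low-fat livers (log2 fold change 0.94 ± 0.42, unadjusted p = 0.0401, adjusted p = 0.534, edgeR). Without high-protein replicate 4 it was 0.69 (unadjusted p = 0.139, edgeR). In the same comparison Cxcl12 had 0.28 ± 0.12 and Cxcl13 -2.43 ± 0.95 (unadjusted p = 0.0348 and 0.0212, adjusted p = 0.534 and 0.51, edgeR). Cxcl13 was at -1.21 without low-fat replicate 4 and Cxcl12 at 0.23 without high-protein replicate 1. Fcgrt, the receptor that recycles IgG, had -0.12 ± 0.14 in low-fat livers. Of 7 lymph node and spleen stroma transcripts, 3 were at or near 0, with 0 to 2 counts of Glycam1, 0 to 4 of Madcam1 and 0 of Tlx1 per library. The other 4 were counted in all 16 libraries: Clu, which hepatocytes also make, at 992.1 to 1506 CPM, Ccl21a at 0.0580 to 1.14 CPM, Ccl19 at 0.491 to 2.16 CPM and Tnfrsf11a at 0.560 to 1.45 CPM. Ccl21a averaged 0.526 ± 0.419 CPM in high-protein, 0.662 ± 0.272 CPM in low-protein, 0.659 ± 0.342 CPM in low-fat and 0.326 ± 0.227 CPM in control livers.

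Across the 16 livers the members varied together in part. Over all 28 pairs Spearman's rho was positive, between 0.33 and 0.84. By Pearson's r with permutation p adjusted over 28 pairs, 4 pairs passed 0.05: Igkc with Jchain (r = 0.78, permutation p = 0.0017, adjusted p = 0.0212), Ighm with Jchain (r = 0.76, permutation p = 0.00227, adjusted p = 0.0212), Igkc with Iglc2 (r = 0.71, permutation p = 0.0005, adjusted p = 0.014) and Ighm with Igkc (r = 0.69, permutation p = 0.00708, adjusted p = 0.0496). By Spearman's rho 7 pairs passed, 5 of them with Ighd: Ighd and Cd79a at rho = 0.78 (permutation p = 0.00051, adjusted p = 0.00714), Ighd and Cd79b at rho = 0.75 (permutation p = 0.00117, adjusted p = 0.0109), Ighd and Ighm at rho = 0.70 (permutation p = 0.00325, adjusted p = 0.0228), and Ighd with Jchain and with Ms4a1, both at rho = 0.63 (permutation p = 0.00985 and 0.0115, adjusted p = 0.0459 for both). The other two were Igkc with Iglc2 at rho = 0.84 (permutation p = 0.00013, adjusted p = 0.00364) and Cd79a with Cd79b at rho = 0.66 (permutation p = 0.00624, adjusted p = 0.0349).

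The pairs with Ighm rested on single livers: without high-protein replicate 1 and low-fat replicate 4, r was 0.14 for Ighm with Igkc and 0.37 for Ighm with Jchain. Igkc with Jchain was at r = 0.66 without low-fat replicate 4 and control replicate 1, and Igkc with Iglc2 at r = 0.74. Within diets, r was 0.72 for Igkc with Jchain, 0.69 for Ighm with Jchain, 0.58 for Igkc with Iglc2 and 0.33 for Ighd with Cd79a, and no pair passed the adjusted threshold there (smallest adjusted p = 0.369, permutation).

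**Figure D5:**
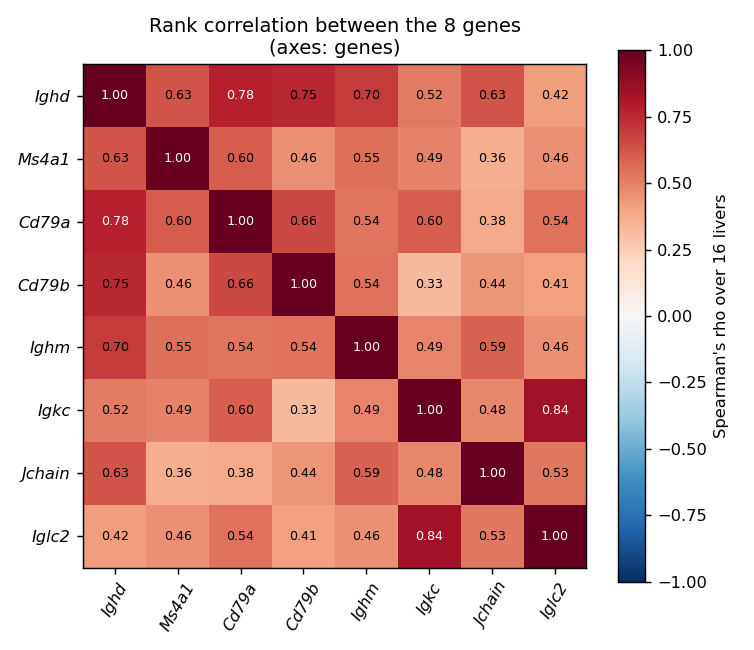
Spearman's rho between each pair of the 8 genes over 16 livers (colour scale from -1 to 1; both axes list the genes). All pairs are above 0; the darkest off the diagonal are Igkc with Iglc2 (0.84) and Ighd with Cd79a (0.78).

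Few B cell genes were among those that most resembled a member across livers. By Spearman's rho over the 16 livers among all tested genes, Cd79a was most like Slfn3 (0.82), the kinase gene Tec (0.80), Pdzd7 (0.80), Pou4f1 (0.79) and Adam19 (0.76). Ms4a1 was most like Gm26816 (0.82), Zfp455 (0.82), Fgl2 (0.81), Trim34b (0.81) and Zfp799 (0.80). Igkc was most like Deup1 (0.91), the chemokine receptor gene Ccr3 (0.86), Clec12a (0.84), C130050O18Rik (0.82) and 3830406C13Rik (0.78), and Jchain most like Ttbk1 (0.91), D630045J12Rik (0.89), Gm45865 (0.89), Slc13a4 (0.88) and Trim7 (0.88). These are the highest of all tested genes over 16 livers and are given as a description.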

How the data were processed

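Total RNA of snap-frozen liver was sequenced from a directional library kit on a NovaSeq instrument, per the labels' protocols. The submitters' processing notes name Trimmomatic 0.39, STAR 2.7.0f, featureCounts from Subread 1.6.4, edgeR 3.32.1 and build GRCm38.p6; the strand setting of the counting is not given in the sources used here. The authors deposited raw counts per gene, with no normalization, for 16 libraries in 1 table. Of 54752 identifiers, 53861 matched GENCODE M21 with their version and 862 more without it or by a names table.

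All tests were computed here with edgeR 4.0.16 in R 4.3.3 on the deposited counts: TMM scaling, the default filter on low counts, a quasi-likelihood fit with 4 diet means over all 16 libraries and Benjamini-Hochberg adjustment over 17833 genes at 0.05. CPM values use TMM-scaled library sizes, and correlations use log2 CPM with a prior count of 2 and 100000 resamples. The fit was tested on simulated data for high protein against control (17524 genes): it recovered 2, 16, 38 and 46 of 50 genes changed by 1.5-, 2-, 4- and 8-fold, with 3 false calls. DESeq2 1.42.0, limma 3.58.1 with voom, other scalings and filters, kidney and erythroid levels as covariates, the replicate number as a block and leaving out each library were alternatives.

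The members, lists and tests were chosen with earlier results of these data known. The named genes are the 8 members, the 3 genes of each list with the smallest p in each comparison with control, the 5 genes most like Cd79a, Ms4a1, Igkc and Jchain, and the leading variable genes (1 gene named by this rule is not reported here); values of these genes in other comparisons, and Mzb1, Derl3 and the lymph node genes in single libraries, were chosen after their values were seen. No 2 libraries of a diet agreed within sampling noise (chi-square per degree of freedom at least 44.8). No label ties mice to litters or cages; the p-values speak only of the spread among these livers, part of which may be technical. Intervals and floors cover counting error only. Of the wider marker lists, 1 gene each of the erythroid, kidney and lymph node lists was not matched and was not used here.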

Additional observations from a re-analysis of the deposited data

Results flagged for a closer look

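Of 44 sets of 4 libraries checked for a library far from the other 3, 4 stood out; chance alone gives about 5%. Igkc in low-fat replicate 4 was 10.95 CPM, with 1.21 to 2.01 CPM in the other low-fat livers. Jchain in the same liver was 4.87 CPM, with 0.518 to 1.00 CPM in the others. Iglc2 in high-protein replicate 2 was 0.2645 CPM (10 counts), with 0 to 0.0270 CPM in the other high-protein livers. Iglc2 in control replicate 2 was 0.112 CPM (4 counts), with 0 CPM in the other control livers.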

How the results depend on the processing

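No member was called under any of the 27 alternatives. All 7 members were lower in high-protein than in low-fat and low-protein livers under every alternative that tested them. Reversals were confined to small values: Jchain in high protein against control was 0.33 on the log2 scale without control 3 and high-protein 1 together. Leaving out single libraries gave -0.63 to 0.20 for it, -0.0122 to 0.68 for Igkc, -0.0324 to 0.71 for Cd79a and -0.765 to 0.22 for Ms4a1 in the same comparison, -0.15 to 0.69 for Jchain in low protein against control and -0.0293 to 0.56 for Cd79b in low fat against control; the cause was not tested. Genes called moved from 0 with DESeq2 to 1 (high protein), 10 (low protein) and 4 (low fat) against control, 25 (high against low protein), 81 (high protein against low fat) and 79 (any diet). At an unadjusted p under 0.05 the edgeR counts were 1109, 1262, 1645, 922, 1620 and 1175 in that order, and 425 for low fat against low protein, where DESeq2 called 0. High protein against low fat had 1 call with limma-voom and 16 with these groups alone. Without control 3 and high-protein 1, low fat against control had 571 calls and any diet 138. Leaving out single libraries gave 0 to 109 calls in low fat against control (109 without control 3), 0 to 19 in high protein against low fat (19 without control 4), 0 to 2 in high against low protein (2 without high-protein 3) and 0 to 1 for any diet.

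For the leading kappa variable gene, Shannon entropy in bits differed, past the adjusted threshold for the first 4 values, by 0.756 (high protein), 1.47 (low protein) and 1.24 (low fat) against control, by -0.71 (high against low protein) and by -0.483 (high protein against low fat, opposite in sense to the share). Among heavy-chain variable genes, all differences in the leading share were opposite in sign to kappa: 1.08 (high protein), 5.46 (low protein) and 0.15 percentage points (low fat) against control, -4.38 (high against low protein), 0.932 (high protein less low fat) and -5.32 (low fat less low protein). The smallest p among these heavy-chain differences was 0.743 (exact permutation), so their direction is uncertain. The kappa difference of low fat against control was -5.24 to 0.115 over single libraries left out. With CPM of library totals r was 0.655 (Ighm and Ighd), 0.624 (Ighm and Ms4a1), 0.624 (Ighd and Cd79b) and 0.597 (Cd79b and Ms4a1), all then past the adjusted threshold, and with a prior count of 0.5 it was 0.680 for Ighm and Igkc, no longer past it.

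With the replicate number as a block 0 genes were called in every comparison; the numbers share no stated origin, and same-numbered deviations correlated at 0.0707 to 0.301 for low fat against control and at -0.201 to 0.280 for high protein against control. Single-digit counts limit Iglc2, Ms4a1 and the variable genes.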
